A study of Mus musculus with 4 samples.

Results

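The genes described here are the extracellular and receptor genes of Wnt signalling, with 2 small families of its intracellular arm. By symbol, they are the Wnt ligands, the R-spondins, the Frizzled receptors, the secreted inhibitors of the Sfrp and Dkk families with Notum and Wif1, the axins, and Tcf7 with its relatives Tcf7l1 and Tcf7l2. The choice was by name and used no measured value, though earlier results of these data were known when it was made. It found 48 genes among the 23203 symbols that stand on a single line of the deposited tables: 19 Wnt ligands, 4 R-spondins, 10 Frizzleds, 10 secreted inhibitors, 2 axins and 3 TCF factors. No member stood on more than 1 line.

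Skin of adult C57BL/6 mice was profiled by 3′ RNA sequencing in 4 groups of 1 library each. The WT naive and Egr1 KO naive groups carry the treatment label SDS, a detergent that breaks the skin barrier. The WT HDM and Egr1 KO HDM groups received SDS followed by a cream with house dust mite (HDM) extract, applied 2 times per week for 3 weeks to the shaved ear and neck area. The Egr1 KO mice are labelled Egr1-/-, on the same background, and were bred together with the WT mice, with genotypes read by PCR. Which part of Egr1 was deleted is not stated. By the labels, all 4 groups share the strain, the sampled tissue and the detergent. How many animals gave RNA to a library is not stated in the labels. The study's title concerns EGR1, a zinc finger transcription factor, and the sensory innervation of the epidermis in atopic dermatitis, which HDM models.

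Wnt proteins are secreted, lipid-modified signals that bind a Frizzled receptor together with the coreceptor LRP5 or LRP6. Binding stops the destruction complex, built on the axin scaffolds, from degrading β-catenin, which then enters the nucleus and switches on target genes with TCF and LEF factors. R-spondins strengthen the signal by protecting Frizzleds from the ubiquitin ligases ZNRF3 and RNF43, while WIF1 and the SFRPs bind Wnts, DKKs block the coreceptors and NOTUM removes the lipid from Wnts. Axin2 is itself a target gene and acts as feedback on the pathway. In skin, Wnt signalling is known for inducing hair follicles, driving the growth phase of the hair cycle and maintaining basal epidermal stem cells, and it also shapes dermal fibroblasts and cartilage.

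The libraries held 9445327 to 10129020 recovered reads. Egr1 itself had 1966 reads in WT naive and 3158 in KO-labelled naive skin, against 1175 (WT) and 3493 (KO-labelled) with HDM, so its 3′ tags were not lower under the KO label. Tags at the 3′ end cannot check a deletion that leaves that end in place, and the libraries are called KO-labelled below. Sex-linked transcripts divided the naive from the HDM libraries: Ddx3y, on the Y chromosome, had 1925 and 2430 reads in the naive libraries and 1 read in each HDM library. Xist, on the X chromosome, had 10 and 40 reads in the naive libraries and 2196 and 2432 in the HDM libraries. Treatment and this difference in sex-linked transcripts cannot be told apart in any HDM comparison. In the KO-labelled naive library, 336 genes were at 0 reads that had 50 or more reads in each other library, against 5 for WT naive, 0 for WT HDM and 4 for KO-labelled HDM. That library also had fewer genes with 1 or more reads, 12880 against 15547 for WT naive, 16536 for WT HDM and 16200 for KO-labelled HDM. Whether reads were lost there was not tested, and folds against a 0 in that library hold only if a 0 stands for at most 3 reads. Whether the same bears on genes high in that library alone, such as Wnt2, Wnt2b and Tcf7 below, was not tested either. Their counting intervals do not cover it. Because each group is 1 library, no p-value was computed, and every difference below is between libraries and has no replicate error. In whole skin, fewer cells of a type and less RNA per cell cannot be told apart.

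Promoter sequence is shown for 5 members on which the results turn. Wif1, Fzd9, Dkk2 and Wnt2 were lower in both HDM libraries than in both naive ones, and Axin2 differed in opposite directions with HDM in WT and KO-labelled skin. The sequences are from RefSeq on the mouse build GRCm38.p6, read 5′ to 3′ on the gene's strand (plus for Dkk2, Wif1 and Axin2, minus for Wnt2 and Fzd9). Each covers the 250 bases before the RefSeq start, shortened where an annotated exon begins earlier. Capitals mark a match to the motif of the EGR zinc finger factors, searched as GCGNGGGCG on both strands.
Wnt2, chr6:18030586-18030695: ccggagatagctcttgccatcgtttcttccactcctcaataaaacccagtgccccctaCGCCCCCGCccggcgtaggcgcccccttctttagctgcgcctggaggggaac
Fzd9, chr5:135251231-135251297: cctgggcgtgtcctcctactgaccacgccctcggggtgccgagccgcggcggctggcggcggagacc
Dkk2, chr3:132085042-132085291: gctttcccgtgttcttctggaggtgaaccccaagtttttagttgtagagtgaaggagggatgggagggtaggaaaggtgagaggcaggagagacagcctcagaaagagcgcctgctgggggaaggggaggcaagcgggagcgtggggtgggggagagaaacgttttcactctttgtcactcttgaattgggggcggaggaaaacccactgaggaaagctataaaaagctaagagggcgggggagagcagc
Wif1, chr10:121033754-121033959: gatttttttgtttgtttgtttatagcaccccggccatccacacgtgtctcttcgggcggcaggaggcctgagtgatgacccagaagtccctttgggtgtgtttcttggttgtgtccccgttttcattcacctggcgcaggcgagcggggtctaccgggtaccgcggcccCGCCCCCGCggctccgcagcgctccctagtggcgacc
Axin2, chr11:108920099-108920348: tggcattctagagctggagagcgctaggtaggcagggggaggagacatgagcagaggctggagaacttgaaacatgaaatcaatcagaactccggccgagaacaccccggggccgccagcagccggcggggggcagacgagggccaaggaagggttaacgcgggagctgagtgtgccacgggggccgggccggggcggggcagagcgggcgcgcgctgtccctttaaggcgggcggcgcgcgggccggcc

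Of these 5, Wnt2 and Wif1 held the EGR motif, each on the strand opposite to the gene. Counted from the RefSeq start, the match lay at -192 to -184 in Wnt2 and at -81 to -73 in Wif1. RefSeq promoters were found for 32 of the 48 members (37 promoters, since some genes had more than 1). Of the 37, 11 held the EGR motif (29.7%), against 4.70% of all 32851 promoters. The member promoters had a median GC content of 69.2% against 52.4% for all promoters. Among all promoters at or above 69.2% GC, 24.6% of 3427 held the motif, and among the member promoters that rich in GC it was 9 of 19. The median GC content was 73.6% in the former set and 76.0% in the latter, so the sets were still not matched in GC. Whether the motif is more frequent in members at equal GC was not tested. The motif also shares its last 5 letters with the GC box of Sp1-type factors. The core motifs of TCF and LEF factors, CTTTGAT or CTTTGAA on either strand, were in 3 of 37 member promoters (8.11%) against 7.48% of all. Those were promoters of Wnt5b, Wnt11 and Dkk1. A match describes letters and is not a binding site.

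Of the 48 members, 31 were measured, meaning that their mean over the 4 libraries passed 5.10 on the log2 scale, the median over all lines, as 11624 genes did. A level below is a deposited log2 value, and 4 values given without library names follow the order WT naive, KO-labelled naive, WT HDM, KO-labelled HDM. A fold is the ratio of scaled reads between 2 libraries with its exact 95% Clopper-Pearson interval, which covers counting error only. A member is called higher or lower when its log2 values differ by at least 1, that is 2-fold. The 31 measured members comprised 9 Wnt ligands, 2 R-spondins, 9 Frizzleds, 7 secreted inhibitors, 2 axins and 2 TCF factors. Another 7 members had 20 or more reads in at least 1 library and are described by their reads. Wnt1, Wnt8a, Wnt8b, Wnt9b, Rspo2 and Dkk4 were at 0 in all 4 libraries, a limit of 3 reads per library, and Wnt7a, Wnt10b, Rspo4 and Dkk1 never passed 13 reads. Of these 4, Wnt10b, a ligand of the hair follicle, had 8 (WT) and 13 (KO-labelled) reads with HDM and 0 in both naive libraries.

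**Figure D1:**
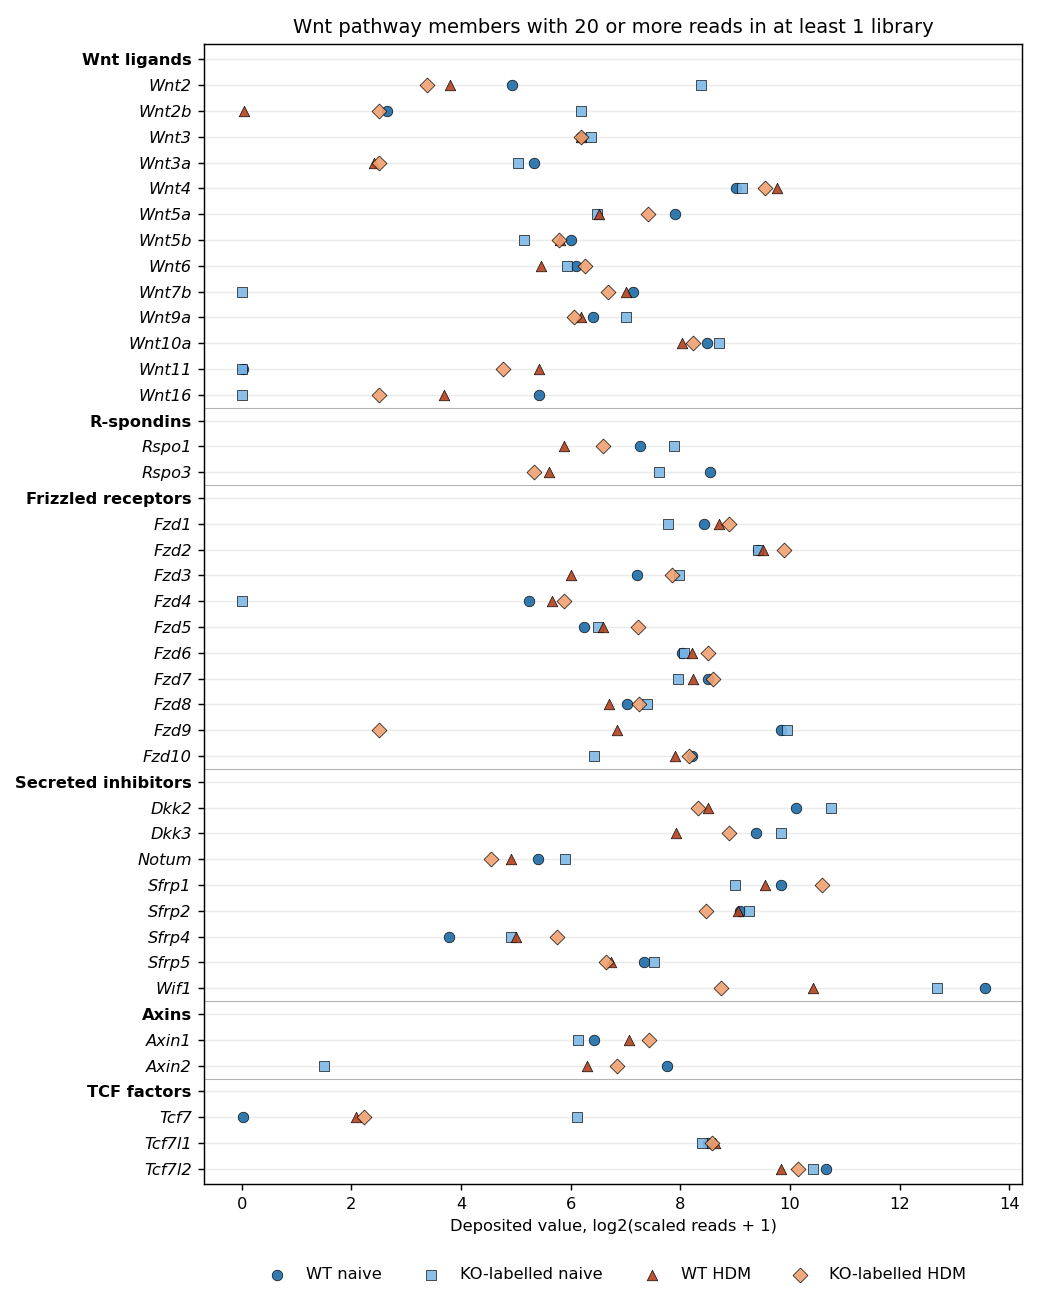
Deposited log2 value (x axis) of each of the 38 members with 20 or more reads in at least 1 library, by role, with 1 point per library (circle WT naive, square KO-labelled naive, triangle WT HDM, diamond KO-labelled HDM). Wif1 runs from 13.56 in WT naive to 8.74 in KO-labelled HDM, the KO-labelled HDM point of Fzd9 stands apart at 2.50, and the KO-labelled naive points of Wnt7b and Fzd4 are at 0.

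Several R-spondins and secreted inhibitors, 1 Frizzled and 1 Wnt ligand had a lower level with HDM. Wif1, Dkk2, Rspo3, Fzd9 and Wnt2 were at least 2-fold lower in both HDM libraries than in both naive libraries, that is 5 of 31 measured members (16.1%), against 5.05% of all measured genes. Of these, Wnt2 counted as measured only through its KO-labelled naive level of 8.39. Its mean was 5.12 against the cut of 5.10, and its other levels lay below that cut. Without the KO-labelled HDM library, 8 members were at least 2-fold lower in WT HDM than in both naive libraries, against 8.22% of all measured genes, the additional ones being Rspo1, Fzd3 and Dkk3. No measured member was at least 2-fold higher in both HDM libraries, against 5.31% of all measured genes. In WT skin, HDM went with 10 members lower (32.3% of 31, against 12.8% of all measured genes) and 0 higher (against 14.5%). In KO-labelled skin, 7 were lower (22.6%, against 18.3%) and 6 higher (19.4%, against 21.8%), so these shares lay near the background. The median log2 difference of the members was -0.33 in WT and -0.12 in KO-labelled skin, against 0.03 and 0.06 for all measured genes.

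Wif1, on chromosome 10 (121033960 to 121100650, plus strand, GRCm38, the build also called mm10), encodes a secreted protein that binds Wnts and keeps them from their receptors. Its reads numbered 11438 and 7015 in the naive libraries of WT and KO-labelled skin, and 1276 and 455 in their HDM libraries. Both naive libraries were thus far above both HDM libraries. With HDM, Wif1 was 8.78-fold lower in WT skin (interval 8.29 to 9.31) and 15.4-fold lower in KO-labelled skin (13.98 to 16.9). It was also lower in the KO-labelled library of each treatment, by 1.84-fold in naive skin (1.79 to 1.90), which is under the 2-fold rule, and by 3.22-fold in HDM skin (2.89 to 3.59).

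Wif1 also made up a smaller share of the secreted-inhibitor reads with HDM. Of the reads of the 10 secreted inhibitors, Wif1 gave 77.9% in WT naive and 62.1% in KO-labelled naive skin, against 40.2% (WT) and 13.0% (KO-labelled) with HDM. In CPM, the recovered reads scaled to counts per 1000000, the 10 genes together had 1528 in WT naive and 1135 in KO-labelled naive skin, against 336 (WT) and 345 (KO-labelled) with HDM. Without Wif1 the sums were 338, 430, 201 and 300 CPM in the same order, so the KO-labelled HDM library then came close to WT naive.

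Dkk2, a Dickkopf protein that acts on the coreceptors LRP5 and LRP6 (chromosome 3, 132085292 to 132180304, plus strand), stood at 10.10 and 10.74 in the naive libraries of WT and KO-labelled skin, and 8.51 and 8.33 in their HDM libraries. The 2 HDM libraries lay together and below both naive ones. Dkk2 was 3.03-fold lower with HDM in WT skin (2.68 to 3.44) and 5.33-fold lower in KO-labelled skin (4.74 to 5.99). Dkk3, a divergent family member whose link to Wnt signalling is less settled, stood at 9.37, 9.83, 7.93 and 8.88. It was 2.73-fold lower with HDM in WT skin (2.34 to 3.19) and 1.93-fold lower in KO-labelled skin (1.73 to 2.16), the latter under the 2-fold rule. Notum, the enzyme that strips the lipid from Wnts, stood at 5.40, 5.91, 4.91 and 4.56 on few reads (39, 63, 27 and 24). Only its KO-labelled difference with HDM passed the rule, at 2.62-fold lower (1.61 to 4.38).

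The Sfrp genes encode secreted decoys with a Frizzled-like domain, and none of the 4 members with an Sfrp symbol was lower with HDM by 2-fold. Frzb, a secreted Wnt-binding protein outside this count by its symbol, was lower with HDM by 8.87-fold in WT and 246.4-fold in KO-labelled skin. Sfrp1 stood at 9.83 in WT naive and 8.997 in KO-labelled naive skin, against 9.54 (WT) and 10.58 (KO-labelled) with HDM. The KO-labelled HDM library was the highest of the 4 and the KO-labelled naive library the lowest. Sfrp1 was therefore 3.00-fold higher with HDM in KO-labelled skin (2.72 to 3.31), with 1.23-fold lower reads in WT skin (1.11 to 1.36), and among the HDM libraries 2.05-fold higher in KO-labelled skin (1.88 to 2.25). Sfrp2, a gene of dermal fibroblasts, stood at 9.09, 9.25, 9.06 and 8.48, and Sfrp5 at 7.34, 7.52, 6.74 and 6.65. No difference of Sfrp2 or Sfrp5 passed 2-fold in any of the 4 comparisons. Sfrp4, below the level called measured, had 12, 31, 29 and 56 reads. An exon of another gene, Gm26771, overlaps the last 500 bases of Sfrp2 on the opposite strand, and whether the counting used strand is not stated.

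Of the 4 R-spondins 2 were measured, and both were lower with HDM in both genotypes (100% of 2, against 12.8% of all measured genes in WT and 18.3% in KO-labelled skin). Rspo3, on chromosome 10 (29452416 to 29535867, minus strand), had 351 and 209 reads in the naive libraries of WT and KO-labelled skin, and 44 and 42 in their HDM libraries. The naive and HDM libraries did not overlap, and the 2 HDM libraries differed by 1.20-fold (0.770 to 1.88). Rspo3 was 7.82-fold lower with HDM in WT skin (5.70 to 10.95) and 4.96-fold lower in KO-labelled skin (3.55 to 7.09). Rspo1 had 145, 250, 54 and 102 reads, with the lowest value in WT HDM and the highest in KO-labelled naive. Rspo1 was 2.63-fold lower with HDM in WT skin (1.91 to 3.67) and 2.44-fold lower in KO-labelled skin (1.93 to 3.11). Over the 4 R-spondin genes the sum was 51.6 CPM in WT naive and 47.0 in KO-labelled naive skin, against 10.9 (WT) and 15.1 (KO-labelled) with HDM.

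Among the Frizzled receptors, Fzd9 stood apart. Fzd9, on chromosome 5 (135248938 to 135251230, minus strand), had 868 and 1057 reads in the naive libraries of WT and KO-labelled skin, and 106 and 5 in their HDM libraries. The naive libraries differed by only 1.08-fold (0.986 to 1.18), whereas the KO-labelled HDM library was 24.3-fold below WT HDM (10.1 to 76.5). With HDM, Fzd9 was 8.02-fold lower in WT skin (6.55 to 9.91) and 210.7-fold lower in KO-labelled skin (90.01 to 650.3), the latter resting on 5 reads. Frzb, a secreted Wnt-binding protein abundant in cartilage and no member by its symbol, had 5399, 4203, 596 and 17 reads. Like Fzd9, Frzb was lowest in KO-labelled HDM, 40.2-fold below WT HDM (24.9 to 69.5).

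Most other Frizzleds stayed within 2-fold. Fzd2 stood at 9.42 in WT naive and 9.42 in KO-labelled naive skin, against 9.51 (WT) and 9.89 (KO-labelled) with HDM, Fzd6 at 8.04, 8.07, 8.22 and 8.51, and Fzd7 at 8.51, 7.96, 8.24 and 8.59. Fzd5 stood at 6.25, 6.51, 6.58 and 7.23, and Fzd8 at 7.03, 7.39, 6.71 and 7.24. None of these 5 receptors differed by 2-fold in any comparison. Fzd3, a receptor known from planar polarity and axon guidance, stood at 7.21, 7.98, 6.01 and 7.85, so the WT HDM library alone was low. It was 2.31-fold lower with HDM in WT skin (1.69 to 3.19), and among the HDM libraries KO-labelled skin was 3.62-fold above WT (2.71 to 4.89).

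Fzd1 and Fzd10 had their lowest value in the KO-labelled naive library. Fzd1 stood at 8.44, 7.78, 8.71 and 8.89 and was 2.17-fold higher with HDM in KO-labelled skin (1.85 to 2.54). Fzd10, at 8.21, 6.43, 7.90 and 8.16, was 3.34-fold higher with HDM in KO-labelled skin (2.63 to 4.27). The other 3 libraries lay within 0.31 of each other for Fzd10 on the log2 scale, and KO-labelled naive was 3.47-fold below WT naive (2.73 to 4.45). Fzd4, a receptor of blood vessels that also binds norrin, had 35 and 0 reads in the naive libraries of WT and KO-labelled skin, and 46 and 62 in their HDM libraries. Summed over the 10 Frizzleds, the level was 321, 322, 236 and 320 CPM in the same order.

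**Figure D2:**
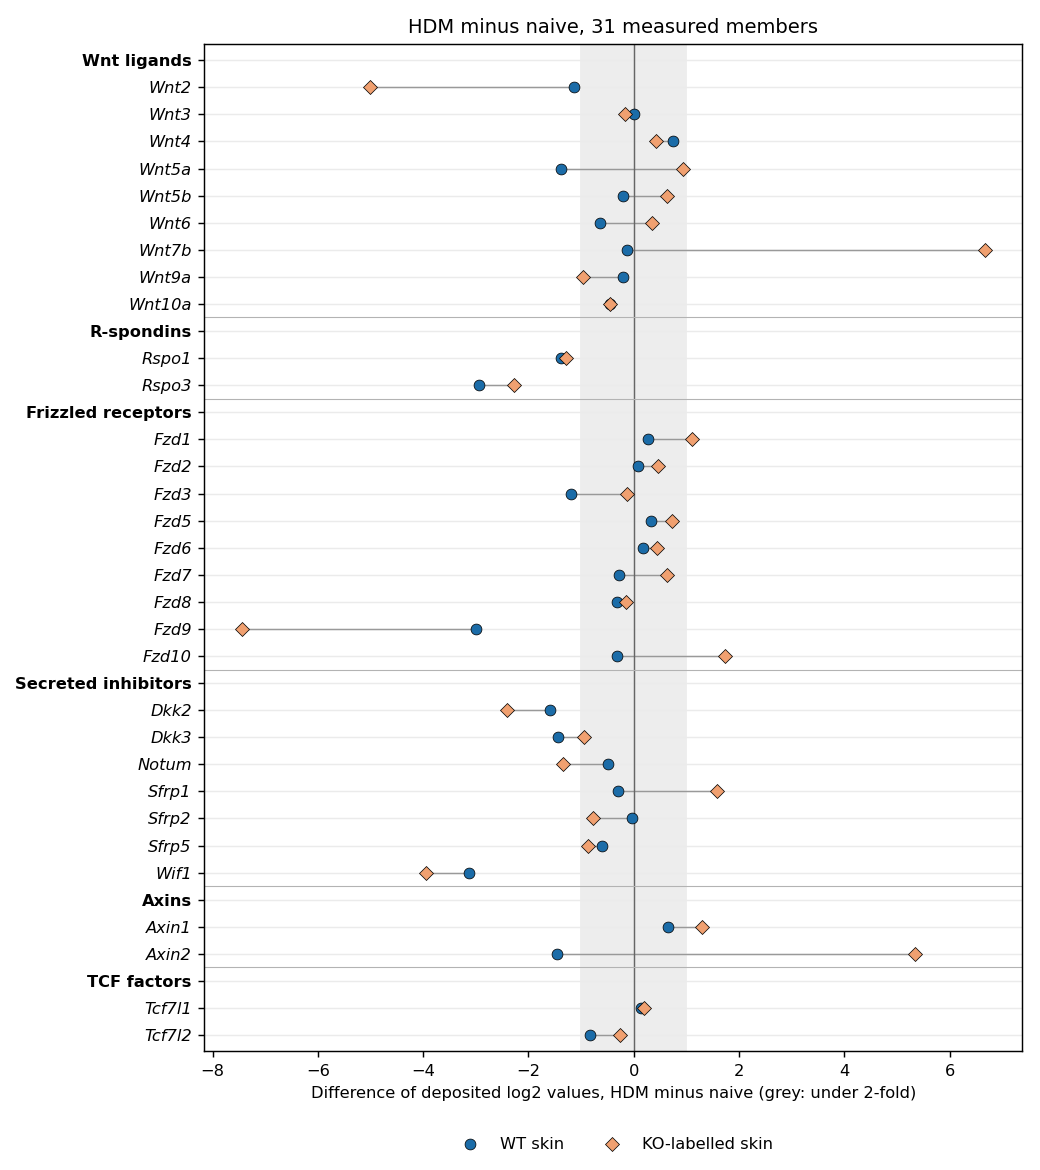
Difference of deposited log2 values, HDM minus naive (x axis), for the 31 measured members by role, with circles for WT and diamonds for KO-labelled skin and a grey band for differences under 2-fold. Wif1, Fzd9, Rspo3, Rspo1, Dkk2 and Wnt2 lie left of the band for both, whereas Axin2 and Wnt7b lie far right for KO-labelled skin, where the naive library had 2 and 0 reads.

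Wnt ligands as a group summed to 163 CPM in WT naive and 194 in KO-labelled naive skin, against 164 (WT) and 173 (KO-labelled) with HDM, while single ligands differed. Wnt2, a ligand known from mesenchyme and endothelium (chromosome 6, 17988940 to 18030585, minus strand), had 28 and 356 reads in the naive libraries of WT and KO-labelled skin, and 12 and 10 in their HDM libraries. Only the KO-labelled naive library was high. Wnt2 was 2.29-fold lower with HDM in WT skin (1.13 to 4.94) and 35.5-fold lower in KO-labelled skin (19.1 to 74.6), and KO-labelled naive was 11.3-fold above WT naive (7.67 to 17.2). Its relative Wnt2b had 5, 77, 0 and 5 reads, again high in KO-labelled naive only, 13.7-fold above WT naive (5.60 to 43.2).

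Wnt5a, the main ligand of β-catenin-independent signalling, had 225 reads in WT naive and 94 in KO-labelled naive skin, against 84 (WT) and 180 (KO-labelled) with HDM. HDM therefore went with a 2.62-fold lower level in WT skin (2.03 to 3.41) and a 1.92-fold higher one in KO-labelled skin (1.49 to 2.49), the latter under the 2-fold rule. Its close relative Wnt5b had 60, 37, 51 and 58 reads and passed the rule in no comparison. Wnt4, which is expressed in epidermis, stood at 9.02, 9.13, 9.77 and 9.55, highest in the 2 HDM libraries. Its folds with HDM were 1.68 (1.5 to 1.88) and 1.33 (1.20 to 1.49), both under the rule.

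Wnt10a, an epidermal and hair follicle ligand whose loss causes defects of teeth, hair and skin, stood at 8.48, 8.70, 8.04 and 8.24. Wnt3 stood at 6.19, 6.37, 6.19 and 6.20, Wnt6 at 6.10, 5.93, 5.46 and 6.27, and Wnt9a at 6.40, 7.01, 6.19 and 6.06. None of these 4 ligands passed the rule in any comparison. Wnt3a, the classic β-catenin ligand, had 37 and 34 reads in the naive libraries of WT and KO-labelled skin against 4 and 5 in the HDM libraries. It was 9.06-fold lower with HDM in WT skin (3.26 to 35.0) and 6.78-fold lower in KO-labelled skin (2.64 to 22.2).

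Wnt11, which acts in cell movement and polarity, had 39 (WT) and 28 (KO-labelled) reads with HDM and 0 in both naive libraries. With HDM the level was higher by at least 13.3-fold in WT skin and by at least 9.36-fold in KO-labelled skin. An exon of Gm8398 overlaps the last 500 bases of Wnt11 on the opposite strand, so that its reads may be shared. Wnt16, a ligand of the follicle and of bone, had 40, 0, 11 and 5 reads and was 3.56-fold lower with HDM in WT skin (1.79 to 7.70). Wnt3a, Wnt11, Wnt16 and Wnt2b were below the level called measured and stand in no count of members here.

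Wnt7b, a ligand of the epidermis and follicle (chromosome 15, 85535437 to 85582473, minus strand), had 133 and 0 reads in the naive libraries of WT and KO-labelled skin, and 119 and 108 in their HDM libraries. In WT skin the 2 libraries differed by 1.10-fold (0.848 to 1.41). KO-labelled naive was at least 50.0-fold below WT naive and at least 36.1-fold below KO-labelled HDM. Axin2, on chromosome 11 (108920349 to 108950783, plus strand), showed the same gap, with 203, 2, 72 and 122 reads. It was 114.5-fold lower in KO-labelled than in WT naive skin (31.3 to 951.8).

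Axin2 was 2.76-fold lower with HDM in WT skin (2.10 to 3.67) but 61.2-fold higher with it in KO-labelled skin (16.6 to 511.0). The latter rests on the 2 reads of KO-labelled naive, whereas the 2 HDM libraries differed by 1.48-fold (1.09 to 2.00). Wnt7b, Fzd4 and Axin2 are the 3 members with at most 3 reads in KO-labelled naive and 10 or more in each other library. The 336 genes counted above show the same kind of gap in that library, and the part of its zeros in these differences was not tested. Axin1, the constitutive scaffold, had 80, 74, 124 and 183 reads, with both HDM libraries above both naive ones. With HDM it was higher by 1.58-fold in WT (1.19 to 2.12) and by 2.48-fold in KO-labelled skin (1.88 to 3.30).

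The TCF factors bind DNA for β-catenin. Tcf7l2 stood at 10.66 in WT naive and 10.42 in KO-labelled naive skin, against 9.83 (WT) and 10.15 (KO-labelled) with HDM, and Tcf7l1, a repressor known from follicle stem cells, at 8.50, 8.40, 8.64 and 8.58. Neither passed 2-fold in any comparison. Tcf7, a factor of T cells and of the follicle, had 0, 73, 3 and 4 reads, high in the KO-labelled naive library only. That library was at least 21.6-fold above WT naive and 18.2-fold above KO-labelled HDM (6.81 to 68.6).

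Between genotypes, 5 measured members passed the rule in naive skin and 4 in HDM skin. In naive skin, 1 member was higher in the KO-labelled library (Wnt2, 3.23% of 31, against 13.7% of all measured genes) and 4 were lower (Wnt5a, Wnt7b, Fzd10 and Axin2, 12.9%, against 17.1%). Both shares lay below the background. Wnt2 counted as measured only through its level in KO-labelled naive. In HDM skin, 2 were higher (Fzd3 and Sfrp1, 6.45%, against 3.06%) and 2 lower (Fzd9 and Wif1, 6.45%, against 4.67%). The median log2 difference of the members was 0.03 in naive and 0.20 in HDM skin, against -0.03 and -0.01 for all measured genes. The 4 comparisons share libraries in pairs, so that a single library enters 2 of them: KO-labelled naive, for example, enters both the HDM difference in KO-labelled skin and the genotype difference in naive skin.

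**Figure D3:**
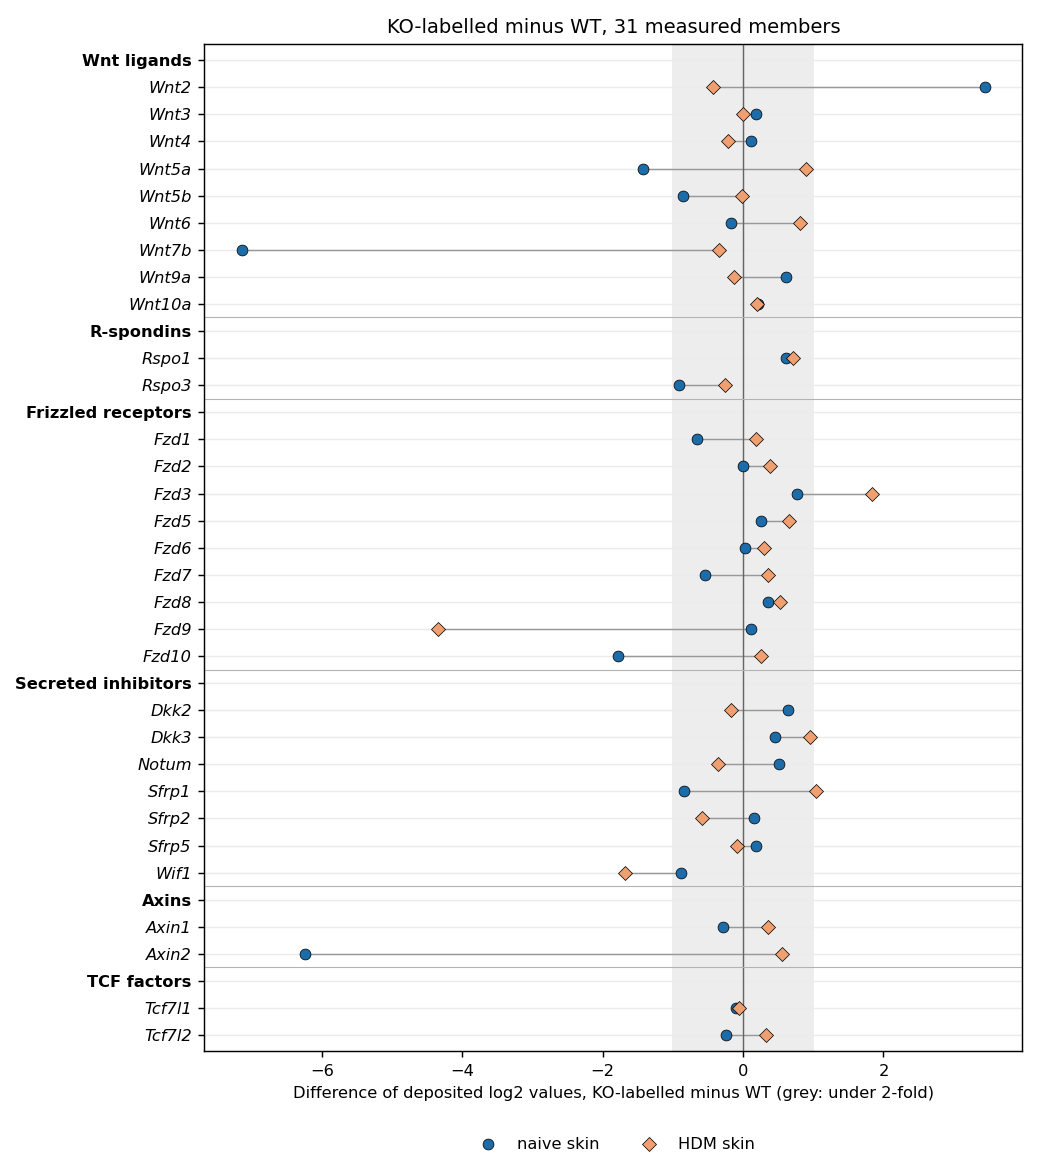
Difference of deposited log2 values, KO-labelled minus WT (x axis), for the 31 measured members by role, with circles for naive and diamonds for HDM skin and a grey band for differences under 2-fold. Wnt7b at -7.14, Axin2 at -6.24 and Wnt2 at 3.45 stand out in naive skin, and Fzd9 at -4.35 in HDM skin, while most points lie inside the band.

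The rest of the pathway was read from 8 lists. Among the coreceptors and other Wnt receptors (5 of 8 found genes measured), Lrp6 had 707 and 699 reads in the naive libraries of WT and KO-labelled skin, and 554 and 626 in their HDM libraries, a narrow range. Lrp5 had 326, 49, 135 and 205 reads, low in KO-labelled naive, and was 2.37-fold lower with HDM in WT skin (1.93 to 2.91) but 4.20-fold higher with it in KO-labelled skin (3.06 to 5.86). For Wnt secretion (4 of 4 measured), Wls, the carrier of Wnts to the cell surface, had 912, 1096, 660 and 619 reads. Porcn, the enzyme that attaches the lipid to Wnts, had 69, 0, 234 and 289 reads. Porcn was 3.46-fold higher with HDM in WT skin (2.64 to 4.597), and its 0 in KO-labelled naive belongs with the zeros described above.

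The genes that read and oppose R-spondins had no common direction with HDM. Of 4 measured, 1 was lower in WT skin (Rnf43, against 12.8% of all measured genes) and 1 higher in KO-labelled skin (Lgr5, against 21.8%). Lgr5, an R-spondin receptor and follicle stem cell marker, had 149 reads in WT naive and 195 in KO-labelled naive skin, against 289 (WT) and 586 (KO-labelled) with HDM. It was 1.98-fold higher with HDM in WT skin (1.62 to 2.43), just under the rule, and KO-labelled skin had a 3.02-fold higher level with HDM (2.56 to 3.56). Znrf3 had 276, 108, 138 and 200 reads, Rnf43 141, 60, 52 and 88, and Lgr6 21, 13, 11 and 15.

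Of 7 measured genes among the other secreted or membrane inhibitors, 2 were lower with HDM in WT skin (Frzb and Tpbg, 28.6%, against 12.8% of all measured genes). In KO-labelled skin 2 were lower (Frzb and Dkkl1, 28.6%, against 18.3%) and 2 higher (Sostdc1 and Kremen1, 28.6%, against 21.8%). Draxin, a secreted axon guidance protein that also blocks Wnt signalling, was at 0 reads in each naive library and had 92 (WT) and 151 (KO-labelled) with HDM. With HDM it was higher by at least 31.3-fold in WT skin and by at least 50.5-fold in KO-labelled skin. Apcdd1, a membrane inhibitor of the follicle and also a target gene, was likewise at 0 reads in naive skin, with 3 reads in the HDM library of WT and 12 in that of KO-labelled skin.

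Target genes gave no single direction. Of 11 measured targets outside the members, 2 were higher with HDM in WT skin (Cd44 and Msx2, 18.2%, against 14.5% of all measured genes) and 2 lower (Nkd1 and Rnf43, 18.2%, against 12.8%). In KO-labelled skin 4 were higher (Lgr5, Nkd2, Myc and Msx2, 36.4%, against 21.8%) and 1 lower (Tnfrsf19, 9.09%, against 18.3%). In naive skin 4 targets were lower in the KO-labelled library (Nkd2, Myc, Znrf3 and Rnf43, 36.4%, against 17.1%), and Lef1 was higher (9.09%, against 13.7%). Lef1, the TCF-type factor of the hair matrix, had 21, 88, 41 and 112 reads and was higher in the KO-labelled library in both treatments, 3.72-fold in naive skin (2.29 to 6.30) and 2.38-fold in HDM skin (1.65 to 3.49). In HDM skin Lef1 was the only one of the 11 past 2-fold.

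Ctnnb1, the gene of β-catenin, had 5317, 5135, 6873 and 9272 reads, and was higher with HDM by 1.32-fold in WT (1.27 to 1.37) and by 1.81-fold in KO-labelled skin (1.75 to 1.88). Of 13 measured genes of the relay and the destruction complex, 1 was higher and 1 lower with HDM in WT skin (Dvl1 and Btrc, 7.69% each, against 14.5% and 12.8% of all measured genes), and 3 were higher in KO-labelled skin (Csnk1a1, Csnk1e and Dvl1, 23.1%, against 21.8%). Of 9 measured nuclear partners, 3 were higher in WT skin (Bcl9l, Pygo2 and Tle4, 33.3%, against 14.5%) and 2 in KO-labelled skin (Bcl9 and Tle3, 22.2%, against 21.8%), with none lower. Bcl9 was at 0 in KO-labelled naive. Of 9 measured planar polarity genes, 2 were higher in each genotype (Vangl1 and Vangl2 in WT, Vangl1 and Prickle1 in KO-labelled skin, 22.2%, against 14.5% and 21.8%), and Daam2 was lower in both (11.1%, against 12.8% and 18.3%).

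Marker sums of cell types differed in their direction with HDM. The summed level of 7 cartilage markers was 2570 and 2256 CPM in the naive libraries of WT and KO-labelled skin, and 1504 and 6.22 CPM in their HDM libraries. Col2a1 had 188, 16, 143 and 0 reads, and Col9a1 346, 475, 38 and 0. Matn1 was at 0 in all 4 libraries, and Col2a1 and Col9a1 were at 0 in KO-labelled HDM, where 3 of 7 markers thus had no read. Fzd9, Frzb and Wif1 also had their lowest value in KO-labelled HDM, as did Dkk2, Rspo3, Wnt2, Notum, Sfrp2, Sfrp5 and Wnt9a. The fibroblast, dermal papilla and salivary sums given below were lowest in that library too. Cytl1 had 17253, 17119, 11608 and 26 reads, most of the cartilage sum in every library but KO-labelled HDM. In WT skin, 3 of the 4 measured cartilage markers were also lower with HDM (75%, against 12.8% of all measured genes). Col9a1 was lower by 8.92-fold (6.37 to 12.8), Chad by 2.85-fold (2.70 to 3.02) and Acan by 2.73-fold (2.51 to 2.97). Cytl1 was 1.46-fold lower (1.42 to 1.49). The part of cartilage in these differences was not tested.

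The 6 dermal fibroblast markers summed to 15926, 32666, 5775 and 4446 CPM, and none was at 0 in any library. Col1a1, the gene of a collagen chain, had 92467, 174445, 16577 and 19876 reads, the largest part of the sum in each naive library. The sum was highest in KO-labelled naive, as were the adipocyte and skeletal muscle sums given below. Wnt2, Dkk2, Dkk3 and Rspo1 were also highest in that library. So were other members, among them Fzd3, Fzd8, Fzd9, Wnt9a, Wnt10a, Notum, Sfrp2 and Sfrp5. By gene, 2 of 6 were lower with HDM in WT skin (33.3%, against 12.8% of all measured genes) and 1 higher (Pdgfra, 16.7%, against 14.5%). In KO-labelled skin 4 were lower (66.7%, against 18.3%). Lum and Pdgfra stood highest in WT HDM, at 11.34 and 9.76 on the log2 scale. The 8 dermal papilla markers summed to 539, 351, 260 and 180 CPM, with 2 of 8 at 0 in WT naive (Alx4 and Sox18) and 3 of 8 in KO-labelled naive (Alx4, Prom1 and Hhip). Its genes did not share a direction. Corin had 1993, 1129, 426 and 66 reads, whereas Alx4 had 0, 0, 8 and 38, Hhip 18, 0, 17 and 98, and Crabp1 101, 144, 141 and 263 reads. Rgs5 differed in direction with HDM: WT skin had a 2.28-fold lower level (1.82 to 2.88), KO-labelled skin a 2.02-fold higher one (1.54 to 2.67). The 10 markers of hair matrix and inner root sheath summed to 624, 416, 2552 and 6293 CPM. Gata3, with 5593, 3475, 2310 and 4021 reads, carried most of both naive sums. It was 2.37-fold lower with HDM in WT skin (2.26 to 2.49). The other 9 markers were higher with HDM in both genotypes (90% of 10, against 14.5% and 21.8% of all measured genes). Of these, Krt71, Krt27, Krt31 and Krt35 counted as measured only through their HDM levels. Their levels in both naive libraries lay below the cut of 5.10, so a higher level with HDM was built into their being counted. Tchh had 123, 231, 5536 and 21901 reads, and Krt25 62, 165, 8123 and 17642. Krt71 had 11, 0, 3858 and 9828 reads, and Krt85 37, 0, 1200 and 3374. Krt27 had 19, 0, 708 and 2504 reads, Krt31 6, 0, 1280 and 1429, and Krt35 4, 0, 563 and 1848. Krt71, Krt27, Krt31, Krt35 and Krt85 of that list were thus at 0 in KO-labelled naive.

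Summed epidermal markers were higher in both HDM libraries. The 5 basal keratinocyte markers summed to 5007, 3089, 13546 and 13163 CPM, and the 4 markers of activated keratinocytes to 358, 152, 23180 and 27221. Krt5 and Krt14, which carry most of the basal sum, were higher with HDM in both genotypes, whereas Col17a1 of the same list was 3.89-fold lower in WT (3.59 to 4.21) and 3.23-fold lower in KO-labelled skin (3.05 to 3.43), and Itgb4 was 1.83-fold lower in WT skin (1.68 to 2.00). Krt6a had 1340, 324, 152027 and 209385 reads, and Krt6b 37, 21, 34300 and 30127. Krt16 had 37, 112, 19632 and 12544 reads, and Krt17 2027, 1058, 12979 and 23669. All 9 epidermal markers were above 0 in every library. Salivary and lacrimal secretory markers were present in naive skin, with sums of 63066, 7477, 68.1 and 7.40 CPM over 6 genes. Bpifa2 had 336363, 44930, 104 and 4 reads, and Smr3a 248978, 27619, 47 and 0. Pip had 19998, 1852, 1 and 0 reads, and Lpo 771, 0, 487 and 71. Adipocyte markers summed to 432, 988, 164 and 333, and skeletal muscle markers to 1716, 2795, 1702 and 2468. The part of any of these cell types in the members' differences was not tested.

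**Figure D4:**
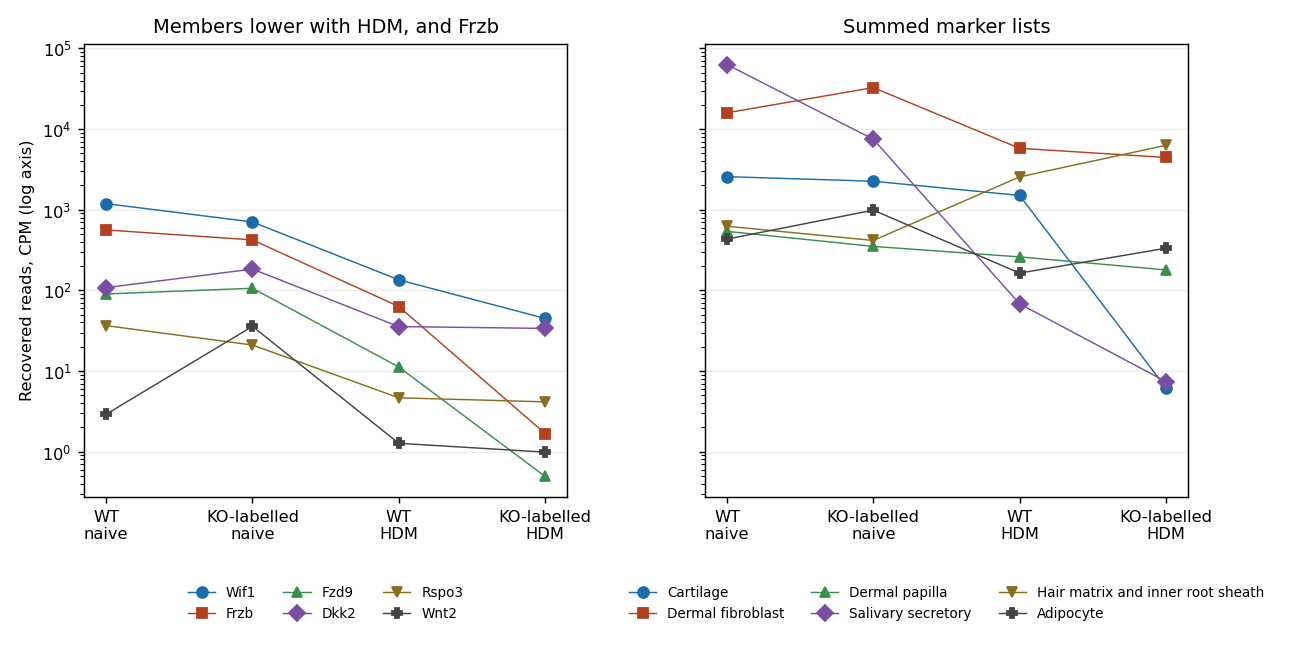
Recovered reads in CPM on a log axis in each library, at left for Wif1, Fzd9, Dkk2, Rspo3, Wnt2 and Frzb and at right for the summed marker lists of 6 cell types, with lines joining the 4 libraries as a guide only. Fzd9 and Frzb drop steeply from WT HDM to KO-labelled HDM, as the cartilage sum does from 1504 to 6.22 CPM, whereas Dkk2 and Rspo3 stay level between these libraries.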

How the data were processed

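Each library was made from 500 ng of total RNA with a QuantSeq 3′ kit, per the labels' protocols. The authors deposited 1 table per library of log2 values for 23282 gene lines. Per the submitters' processing notes, the tools were Bowtie2 and bedtools and the build mm10, with no version or role stated. How the values were normalized is not given in the sources used here. From their spacing, the deposited values are log2(x + 1), where x is the number of reads times a step of 1.06, 0.936, 1.08 and 0.939 for WT naive, KO naive, WT HDM and KO HDM. Of genes with up to 200 reads, 99.3%, 96.2%, 98.9% and 99.1% then came out whole within 0.1 read, so reads were recovered by division. Values over 0 that came to under 0.5 reads (2112 in WT naive and 1123 in WT HDM) were taken as 0. The totals were 9612070, 9950023, 9445327 and 10129020 reads, and these bound the precision of each count. A 0 was taken as up to 3 reads, and ratios have exact 95% Clopper-Pearson intervals for counting error. Reads carry no molecular identifiers in these tables. The 35 symbols on more than 1 line (79 lines) were left out.

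Groups follow the labels. With 1 library per group, no test was run. Differences are between deposited log2 values, with 2-fold as the size rule among genes whose mean passed 5.10. Members, lists and the rule for named genes were chosen with earlier results of these data known. Described by value were members with 20 or more reads in at least 1 library, 11 fixed pathway genes, and list genes at least 4-fold apart in the same direction in both HDM or both genotype comparisons. Counts of at most 5 genes are also named, after their values were seen. Alternatives were other scalings, filters, a pseudocount of 10 and added members. Scripts used scipy 1.17.1, pandas 2.3.3 and numpy 2.4.6 under Python 3.11.15 and were tested on simulated data.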

Additional observations from a re-analysis of the deposited data

Results flagged for a closer look

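Axin2 was singled out because its 2 HDM differences pointed in opposite directions, each past 2-fold. The difference was -1.45 on the log2 scale in WT skin (203 reads without HDM and 72 with it) and 5.34 in KO-labelled skin (2 reads without and 122 with it). They differ by 6.80 on the log2 scale. Each rests on 1 library per group, and the difference between them was not tested.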

How the results depend on the processing

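No paired analysis was possible because each group held 1 library and the results come from no test. The 38 described members gave 152 differences, of which those of members not measured could not count as passing. Among the 31 measured members, 32 differences passed 2-fold. All 32 kept their direction under scaling to total reads, scaling to the median and a pseudocount of 10, and 31, 32 and 31 of them stayed past 2-fold. Scaling to total reads moved the median of all measured genes to at most 0.09 on the log2 scale. Other filters on low values change how many members are counted. With no filter on level (48 members), 5 were higher with HDM in WT skin (against 17.2% of all genes), 10 higher in KO-labelled skin (25.6%), 5 higher and 7 lower in KO-labelled naive skin (9.66% and 21.9%), and 2 higher in both HDM libraries (Wnt10b and Wnt11, 7.54%). With a looser filter (a mean above 3.46, 34 members), 1 was higher with HDM in WT skin (16.1%) and 2 higher in KO-labelled naive skin (14.6%). With a stricter filter (a mean above 7.0, 19 members), 6 were lower with HDM in WT skin (10.8%), 3 higher and 3 lower in KO-labelled skin (18.6% and 15.0%), 0 higher and 2 lower in KO-labelled naive skin (10.2% and 12.6%), and 3 lower in both HDM libraries (Fzd9, Dkk2 and Wif1, 4.13%). With Dkkl1 and Frzb added, 4 of 33 were lower in KO-labelled HDM skin (4.67%). Without the KO-labelled HDM library, an alternative chosen after seeing the data, 8 members were lower in WT HDM than in both naive libraries (8.22%). Reads limit the low members most: Wnt2 had 12 and 10 reads with HDM, and Fzd9 5 in KO-labelled HDM.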
